A study of Rattus norvegicus with 15 samples.

Results

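Transcripts of striatal neurons for transmitter synthesis, neuropeptides and dopamine signalling were followed in rat brain after intracerebral hemorrhage. The genes were chosen by Ensembl ID from a list of 8, and 7 of them were measured among the 15094 genes of the count table: Gad1 (ENSRNOG00000000007), Drd1 (ENSRNOG00000023688), Drd2 (ENSRNOG00000008428), Penk (ENSRNOG00000008943), Pdyn (ENSRNOG00000026036), Ppp1r1b (ENSRNOG00000028404) and Th (ENSRNOG00000020410). The eighth, Tac1, was not analysed here. Gene names come from the selection list, because the table gives IDs only. The Sprague-Dawley rats were sampled 72 h after modelling, and the brain tissue is labelled as basal ganglia cells. One group had a sham operation (Sham, 5 libraries), one had intracerebral hemorrhage (ICH, replicates 1, 2 and 5), and one had ICH followed by mithramycin A (ICH_MA, replicates 1, 2 and 3). Mithramycin A binds GC-rich DNA and keeps the transcription factor Sp1 from its sites. The sources used here do not give its dose, route or vehicle, the way hemorrhage was induced, the side of the brain sampled or the age of the rats. A further 4 labelled samples were not analysed here.

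The striatum, the input station of the basal ganglia, consists mainly of GABA-releasing projection neurons of 2 kinds. Striatonigral neurons carry the D1 dopamine receptor (Drd1) and make dynorphin from Pdyn, and striatopallidal neurons carry the D2 receptor (Drd2) and make enkephalin from Penk. Both kinds contain the dopamine-regulated phosphatase inhibitor DARPP-32, encoded by Ppp1r1b, and the GABA-synthesizing enzyme encoded by Gad1. Dopamine reaches them along axons from the midbrain, where the cell bodies contain most of the transcript of tyrosine hydroxylase (Th), the rate-limiting enzyme of catecholamine synthesis.

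The libraries held 56393423 to 67733469 counts. Over all genes, the median absolute log2 difference from the sham mean was 0.145 in ICH replicate 5, against 0.237 and 0.211 in ICH replicates 1 and 2. It was 0.133 in Sham replicate 1 and 0.0859 to 0.108 in the other sham libraries. Comparisons with Sham and spreads within groups are given with and without Sham replicate 1 where it changed them. The design names 5 rats per group, and the labels do not tie a library to a rat, so p-values measure the spread between these samples.

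Levels are given as CPM, counts scaled to a common library total after TMM normalization. They compare libraries for 1 gene at a time, since CPM does not correct for gene length. Drd1 was at 148, 39.8, 22.8, 20.6 and 34.9 CPM in Sham replicates 1 to 5, at 106, 49.4 and 132 CPM in ICH replicates 1, 2 and 5, and at 46.1, 61.7 and 69.8 CPM in ICH_MA replicates 1 to 3. Sham replicate 1 was the highest of all 11 libraries and Sham replicate 4 the lowest, so that the sham group alone spanned the whole 7.19-fold range. Drd2 was at 127, 31.3, 19.0, 16.6 and 29.7 CPM in the sham libraries, 86.6, 37.9 and 91.2 CPM in ICH, and 35.0, 51.4 and 48.4 CPM in ICH_MA. The same sham libraries were highest and lowest, 7.66-fold apart, and ICH replicate 2 lay under the other ICH libraries. Ppp1r1b was at 1068, 299.5, 193, 174 and 289 CPM in Sham, 827, 317 and 801 CPM in ICH, and 307, 448 and 496 CPM in ICH_MA. For this gene too, Sham replicate 1 was above every other library and Sham replicate 4 below, and the groups overlapped. The receptors and DARPP-32, which define projection neurons of the striatum, were thus detected in every library under the basal ganglia label, at levels that varied severalfold within the sham group.

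Among the peptide precursors, Penk was at 517, 181, 139.8, 104 and 164 CPM in Sham, 307, 281 and 411 CPM in ICH, and 162, 272 and 227 CPM in ICH_MA. Its ICH libraries lay above all ICH_MA libraries and above all sham libraries except Sham replicate 1. Pdyn was at 105, 54.5, 43.0, 43.1 and 49.1 CPM in Sham, 68.2, 54.0 and 83.4 CPM in ICH, and 50.2, 76.3 and 49.1 CPM in ICH_MA. Its range was narrower, 2.44-fold over the 11 libraries against 4.97-fold for Penk. In bulk tissue, fewer cells of a type and less RNA per cell cannot be told apart.

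Gad1, which is also expressed by GABA neurons outside the striatum, was the steadiest of the 7 genes. It was at 336, 292, 238, 228 and 258 CPM in Sham, 281, 325 and 389.7 CPM in ICH, and 255, 287 and 288 CPM in ICH_MA. The groups overlapped within a 1.71-fold range, with the highest value in ICH replicate 5. Th was the lowest in counts, with 56 to 1720 per library, and the most variable. It was at 5.75, 4.49, 18.3, 26.4 and 4.94 CPM in Sham, 0.938, 4.98 and 2.18 CPM in ICH, and 6.71, 4.35 and 6.46 CPM in ICH_MA. Sham replicates 3 and 4, with the lowest Drd1, Drd2 and Ppp1r1b, had the highest Th, and ICH replicate 1 had the lowest, 28.2-fold under Sham replicate 4.

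**Figure D1:**
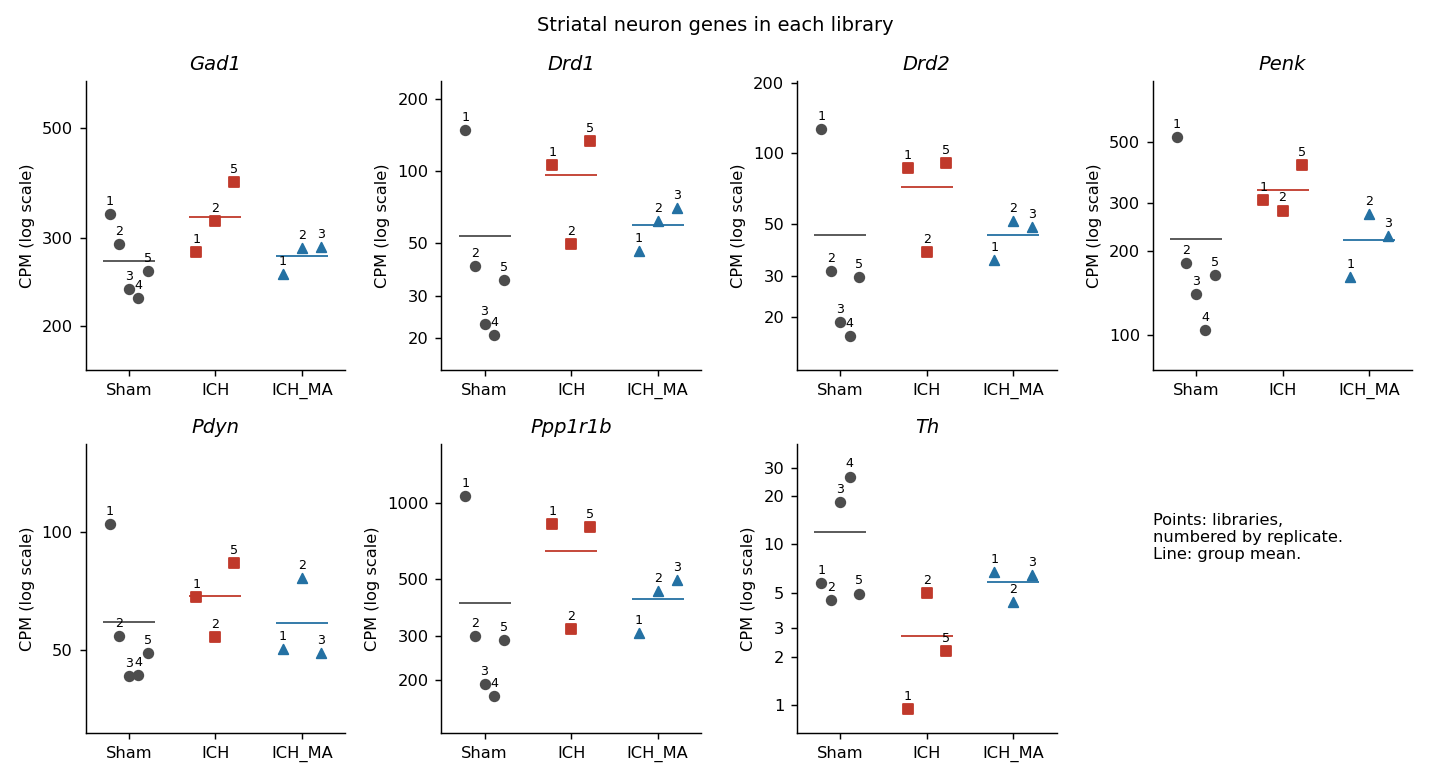
CPM of the 7 genes (vertical log axis) in each library, by group on the horizontal axis, with points numbered by replicate and a line at the arithmetic group mean. Sham replicate 1 was the highest library for Drd1, Drd2, Penk, Pdyn and Ppp1r1b, and the Th values of Sham replicates 3 and 4 (18.3 and 26.4 CPM) stand above all others.

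The spread between libraries of 1 group was large for most of these genes. The SD of log2 CPM within groups was 0.90 for Drd1, 0.91 for Drd2, 0.86 for Ppp1r1b, 0.67 for Penk, 0.45 for Pdyn and 1.04 for Th, against a median of 0.15 over all 14963 genes tested. It placed Drd1 and Drd2 each at the 98.2 percentile of all genes tested and Th at the 98.6 percentile, while Gad1, at 0.21, lay at the 67.4 percentile. Differences between groups made up 28.4% of the sum of squares of Drd1, 23.3% of Drd2, 21.2% of Ppp1r1b and 9.05% of Pdyn, against 37.8% for the median gene and 47.7% for Th. The spread of each gene but Th was smaller without Sham replicate 1. There, the SD within groups was 0.53 for Drd1, 0.51 for Drd2, 0.53 for Ppp1r1b, 0.34 for Penk, 0.28 for Pdyn and 1.08 for Th, against a median of 0.14 over all genes tested. Drd1 then lay at the 94.3 percentile and Penk at the 86.1 percentile. The share of the sum of squares between groups was then 71.3% for Drd1, 69.4% for Drd2, 62.3% for Ppp1r1b and 46.5% for Pdyn, against 43.5% for the median gene. Sham replicate 1 was singled out for its high values of these genes, so the smaller spread and larger share follow in part from that choice.

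The genes varied together from library to library. After removal of group means, log2 CPM of Drd1 and Drd2 over the 11 libraries had Pearson's r = 0.99 (exact permutation of libraries within groups, two-sided p = 0.000694, adjusted p = 0.00365 over 21 pairs) and Spearman's rho = 0.97 (exact permutation p = 0.000926, adjusted p = 0.00608). Drd2 and Ppp1r1b also had r = 0.99 (exact permutation p = 0.00139, adjusted p = 0.00417) and rho = 0.97 (exact permutation p = 0.00185, adjusted p = 0.00778). Without the 2 libraries farthest from the median, Sham replicates 1 and 4, r was 0.98 for Drd1 with Drd2 and 0.99 for Drd2 with Ppp1r1b. The receptor that marks striatonigral neurons and the one that marks striatopallidal neurons were high and low in the same libraries.

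Penk and Pdyn followed the receptors less closely. All 10 pairs among Drd1, Drd2, Ppp1r1b, Penk and Pdyn passed, with r from 0.89 to 0.99 (exact permutation, adjusted p from 0.00365 to 0.0146) and rho from 0.80 to 0.97 (exact permutation, adjusted p from 0.00486 to 0.0212). Without the 2 libraries farthest from the median, r in these pairs was 0.69 to 0.99. Gad1 passed with Penk (r = 0.85, rho = 0.83, exact permutation p = 0.00231 for r, adjusted p = 0.0054). It also passed by r, though not by rho, with Drd1 (r = 0.77, exact permutation adjusted p = 0.0411; rho = 0.72, adjusted p = 0.0602) and Pdyn (r = 0.76, exact permutation adjusted p = 0.0243; rho = 0.63, adjusted p = 0.094). It did not pass with Drd2 (r = 0.73, exact permutation adjusted p = 0.0597) or Ppp1r1b (r = 0.69, exact permutation adjusted p = 0.0875). Without Sham replicate 1 and ICH replicate 5, r of Gad1 was 0.37 with Drd1 and 0.34 with Pdyn, so these relations rest on those libraries, whereas r with Penk was 0.74. Other omissions raised them. Without ICH replicate 1, r of Gad1 was 0.95 with each of Drd1, Drd2 and Ppp1r1b (exact permutation adjusted p from 0.00365 to 0.00438). Without ICH replicate 2 it was 0.83, 0.78 and 0.76 (exact permutation adjusted p from 0.00625 to 0.0101). Of the 21 pairs, 13 passed with all libraries and 3 without Sham replicate 1: Drd1 with Drd2 (r = 0.98), Drd1 with Ppp1r1b (r = 0.97) and Drd2 with Ppp1r1b (r = 0.98).

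Th ran the other way without passing the test. Its r with the other 6 genes was −0.67 to −0.36 (exact permutation adjusted p from 0.0875 to 0.393) and its rho −0.72 to −0.33 (exact permutation adjusted p from 0.0602 to 0.422). The most negative r was with Ppp1r1b (exact permutation p = 0.0692). Without Sham replicate 1, r of Th was −0.87 with Drd2, −0.82 with Ppp1r1b and −0.26 with Gad1. No pair with Th passed there (exact permutation adjusted p from 0.0574 to 0.542). Sham replicate 1 was singled out for its values of these genes. The part of midbrain tissue in the Th level was not tested.

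**Figure D2:**
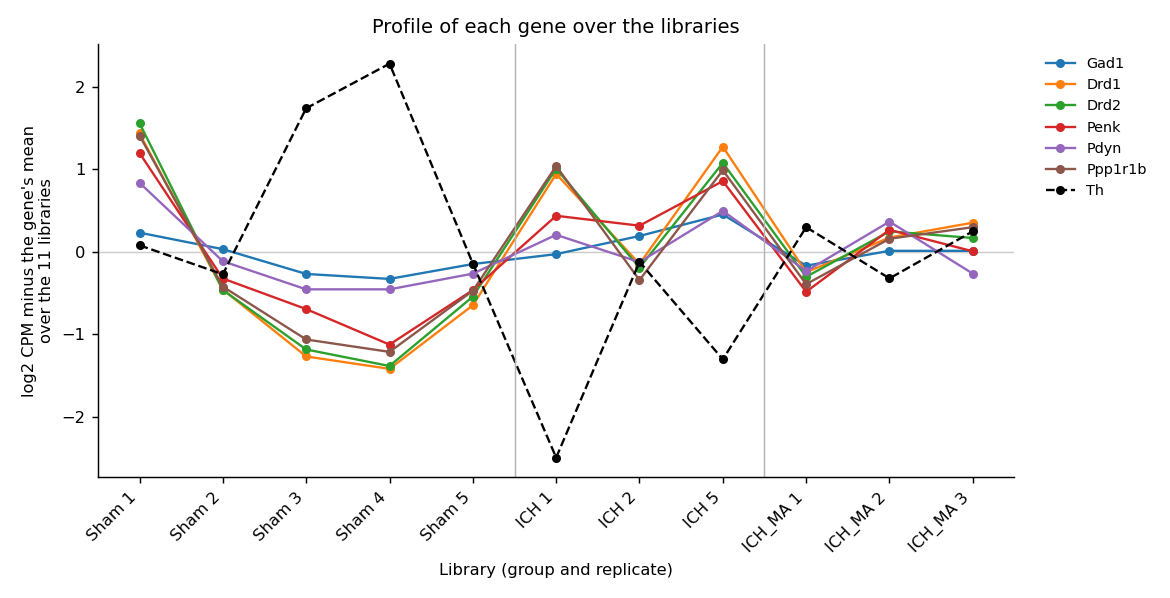
Log2 CPM of each gene minus its mean over the 11 libraries (vertical axis), by library (horizontal axis, with grey lines between groups). Solid lines for Drd1, Drd2, Ppp1r1b, Penk and Pdyn peak in Sham replicate 1 and are low in Sham replicates 3 and 4, where the dashed line of Th peaks.

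**Figure D3:**
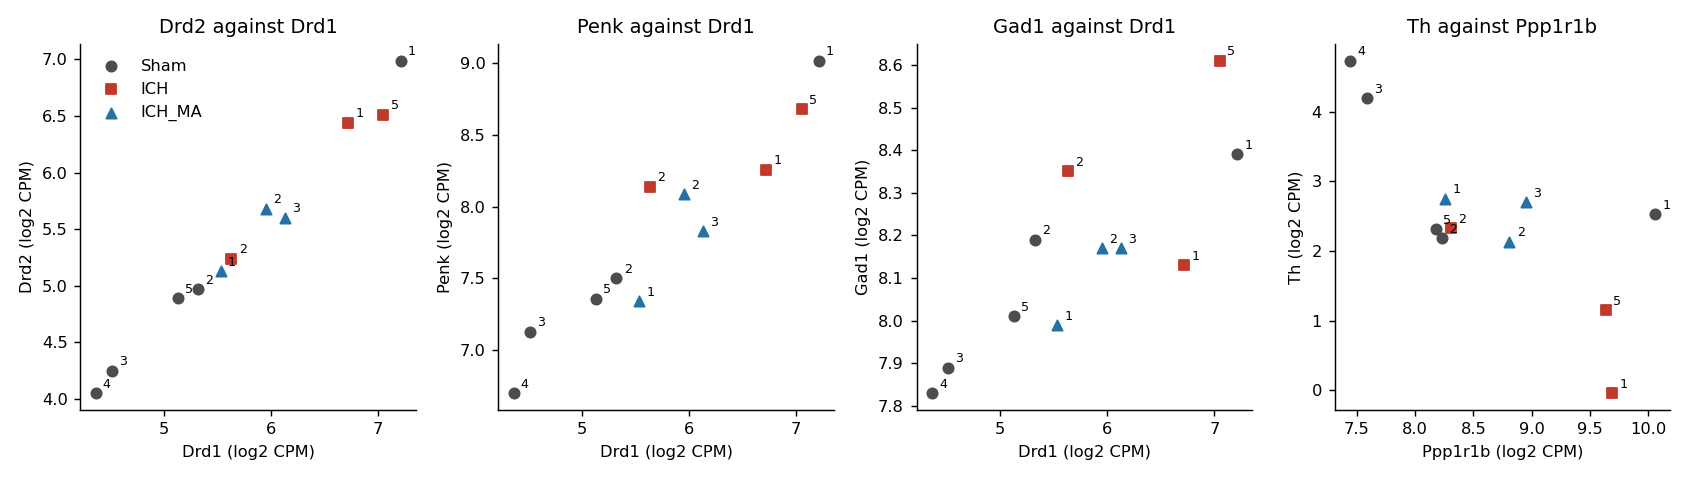
Log2 CPM of gene pairs, 1 point per library, with colour and shape for the group and numbers for the replicate. Drd2 lies on a narrow line against Drd1 in all 3 groups (r = 0.99 after removal of group means), Penk and Gad1 scatter more widely against Drd1, and Th is high where Ppp1r1b is lowest.

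Sequences before the transcription start are shown for Drd2 and Pdyn, which varied together across libraries, and for Th, whose correlations with them were negative and did not pass. They come from RefSeq (build GRCr8, matched by symbol, 6 of the 8 genes found) and are given 5′ to 3′ on the gene's strand. Capitals mark 3 motifs, searched on both strands with no overlap among the matches. The first is TGACGTCA, a cyclic AMP response element, through which dopamine receptor signalling is known to act on peptide genes. Another is GGGCGG, a GC box, bound by Sp1. The Drd2 window is chr8:58605153-58605402 (plus strand), the Pdyn window chr3:137366504-137366753 (minus strand), and the Th stretch chr1:207508277-207508468 (minus strand), without the bases that lie in the RefSeq gene span.
Drd2: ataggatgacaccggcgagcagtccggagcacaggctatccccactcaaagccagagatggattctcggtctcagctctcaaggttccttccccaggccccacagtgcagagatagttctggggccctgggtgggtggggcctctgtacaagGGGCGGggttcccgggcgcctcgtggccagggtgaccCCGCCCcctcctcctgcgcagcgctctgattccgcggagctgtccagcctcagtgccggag
Pdyn: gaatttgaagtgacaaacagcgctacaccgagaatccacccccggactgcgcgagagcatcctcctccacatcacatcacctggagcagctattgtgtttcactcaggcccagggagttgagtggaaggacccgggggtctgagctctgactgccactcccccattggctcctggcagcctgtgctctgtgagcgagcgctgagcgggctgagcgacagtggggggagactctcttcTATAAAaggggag
Th: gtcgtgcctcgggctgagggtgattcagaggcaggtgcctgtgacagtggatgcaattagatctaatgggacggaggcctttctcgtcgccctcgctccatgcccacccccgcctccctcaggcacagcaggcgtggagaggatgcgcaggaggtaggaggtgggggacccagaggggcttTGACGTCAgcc
Over the 250 bases before the start, Drd2 held 2 GC boxes and Gad1 held 1, and none was found in the windows of Drd1, Pdyn, Tac1 or Th. Of these bases, 192 of Gad1, with its GC box, and 239 of Tac1 lay inside the RefSeq gene span. A GC box was present in 30.5% of all 33469 windows of this length. Th, alone among the 6 genes with a window, held the cyclic AMP response element, 62 to 69 bases before the start, which 1.59% of all windows held. Pdyn had the TATA box, spelled as TATAAA, 8 to 13 bases before the listed start and Gad1 had one 208 to 213 bases before it, a motif in 12.9% of all windows. Drd1, whose window lay inside its RefSeq gene span and is not shown, held none of the 3 motifs.

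The comparison of ICH with Sham asked which of these genes changed with hemorrhage. Th fell, and none of the 6 other genes passed (1 of 7 called by the edgeR quasi-likelihood test at an adjusted p under 0.05). Of all genes tested, 24.5% were called, 15% higher and 9.44% lower, so 1 of 7 does not set these genes apart. Th averaged 12.0 ± 9.90 CPM over the 5 Sham libraries and 2.70 ± 2.07 CPM over the 3 ICH libraries (mean ± SD), and its fitted log2 fold change was −2.15 ± 0.71 (SE; edgeR adjusted p = 0.0461). The groups overlapped: ICH replicate 2, at 4.98 CPM, lay above Sham replicates 2 and 5. The call of Th was kept in 7 of 19 alternatives (edgeR, DESeq2 or limma-voom adjusted p from 0.0139 to 0.23 over all 19). It was lost without Sham replicate 3 (edgeR adjusted p = 0.0854) or 4 (0.0842), without ICH replicate 1 (0.158) or 5 (0.102), and without any 1 of the ICH_MA libraries, which add to the estimate of spread (0.0592 to 0.0611).

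The other 6 genes had positive log2 fold changes that did not pass. Drd1 averaged 53.2 ± 53.5 CPM over the Sham libraries (SD, n = 5) and 95.8 ± 42.4 CPM over the ICH libraries (SD, n = 3), for a fitted log2 fold change of 0.85 ± 0.58 (SE; edgeR adjusted p = 0.313). The log2 fold change was 0.68 for Drd2 (SE 0.59), 0.68 for Ppp1r1b (SE 0.55), 0.59 for Penk (SE 0.43) and 0.22 for Pdyn (SE 0.29), with edgeR adjusted p from 0.349 to 0.624. Gad1, with means of 270.2 ± 44.4 CPM over Sham and 332 ± 54.7 CPM over ICH (SD), had the smallest error, at a log2 fold change of 0.30 ± 0.13 (SE; edgeR adjusted p = 0.124). The median log2 fold change of the 7 genes was 0.59, against 0 over all genes tested, and their median SE was 0.55, against 0.10. Without Sham replicate 1 the median was 1.16, against −0.01 over all genes. That library was singled out for its high values of these genes, so its omission raises their median by construction. With all libraries, no gene of the 7 had groups that did not overlap. Of all genes tested, 15.2% had every ICH library higher and 10.9% every ICH library lower, and a count of 0 among 7 genes does not set them apart.

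Sham replicate 1 changed this count. Each library was left out in turn by plan, but this one is singled out because of its values for these same genes. It was the highest library for Drd1, Drd2, Penk, Pdyn and Ppp1r1b. For them, its omission raises the fold change and narrows the spread by construction, so the values are a description. Without Sham replicate 1, 6 of the 7 genes passed, against 28.4% of all genes tested: 5 rose (15.3% of all genes did) and Th fell (13.1% of all genes did). The log2 fold change of ICH against the 4 remaining sham libraries was 1.68 for Drd1 (SE 0.32, edgeR adjusted p = 0.00403), 1.55 for Drd2 (SE 0.31, edgeR adjusted p = 0.00477) and 1.42 for Ppp1r1b (SE 0.32, edgeR adjusted p = 0.00821). It was 1.16 for Penk (SE 0.21, edgeR adjusted p = 0.00345) and 0.37 for Gad1 (SE 0.12, edgeR adjusted p = 0.0368). Pdyn did not pass (0.51, SE 0.18, edgeR adjusted p = 0.054), and Th was at −2.35 (SE 0.71, edgeR adjusted p = 0.0318). The groups then did not overlap for Drd1, Drd2, Penk and Ppp1r1b (4 of 7 with ICH higher, against 18.9% of all genes tested, and 0 of 7 with ICH lower, against 15.9%). These 4 genes had overlapped only through Sham replicate 1, so the omission fixed this outcome, and the shares are no test of it. For Drd1 the 4 remaining sham libraries had a mean of 29.5 ± 9.32 CPM (SD, n = 4), and ICH replicate 2, at 49.4 CPM, lay nearer to them than to ICH replicates 1 and 5. Without ICH replicate 5 as well, an omission chosen after the values were seen, those 4 genes still passed (33% of all genes tested did). Th and Gad1 did not.

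The comparison was also fitted with log2 CPM of Ppp1r1b as a further term, an alternative chosen after the values were seen. Ppp1r1b is itself one of the 7 genes and varied closely with the receptors and peptides, so the term takes out what they share with it by construction, and the values are a description. The log2 fold change of ICH against Sham was 0.21 for Drd1 (SE 0.09, edgeR adjusted p = 0.144), 0.07 for Drd2 (SE 0.09), 0.20 for Penk (SE 0.19), −0.14 for Pdyn (SE 0.15) and 0.16 for Gad1 (SE 0.11). Th was at −1.42 (SE 0.53, edgeR adjusted p = 0.0881), against −2.15 without the term (edgeR adjusted p = 0.0461). None of the 6 genes passed, while 18.4% of all genes tested did (2753, against 3662 without the term). What set the Ppp1r1b level of a library, such as the part of the brain cut out, was not tested.

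**Figure D4:**
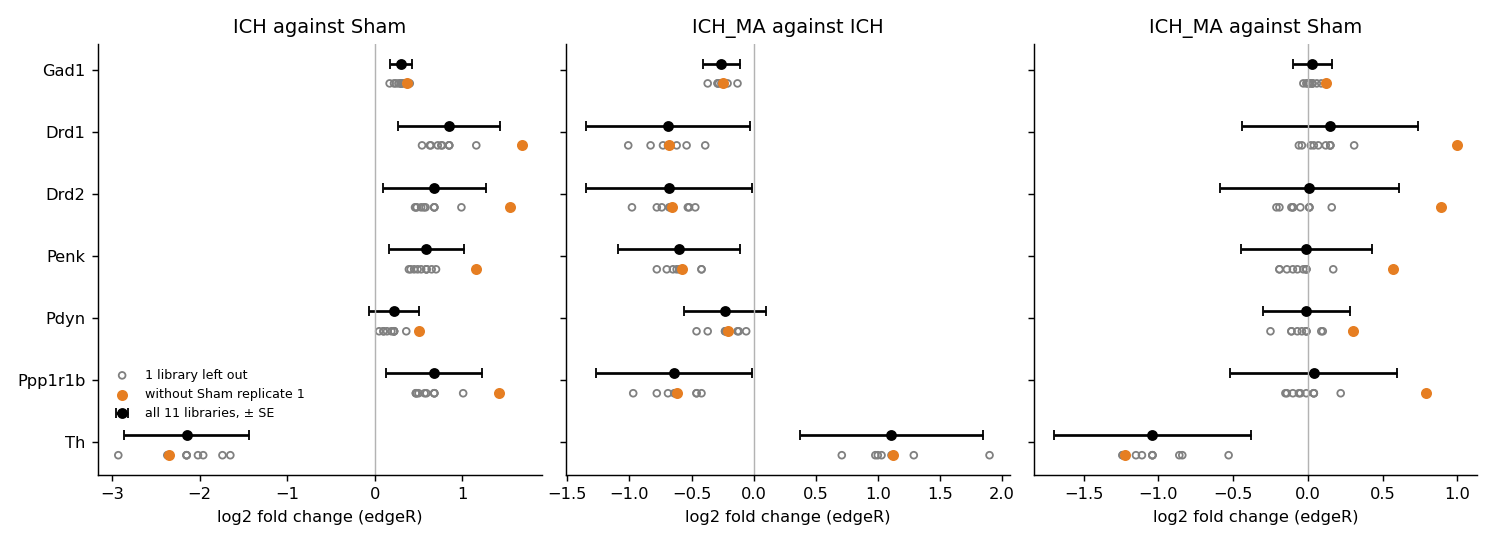
Log2 fold changes (horizontal axis) of the 7 genes in the 3 comparisons, as black points with SE from all 11 libraries, open circles with 1 library left out at a time and orange points without Sham replicate 1. In both comparisons with Sham, leaving out Sham replicate 1 moved Drd1, Drd2, Penk and Ppp1r1b further from 0 than leaving out any other library (Drd1 from 0.85 to 1.68 in ICH against Sham).

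The comparison of ICH_MA with ICH asked what the drug changed after hemorrhage. No gene of the 7 passed (0% of all genes tested were called by edgeR, with a smallest adjusted p of 0.176 and 15.5% at an unadjusted p under 0.05, while DESeq2 called 477 and limma-voom 0). Drd1 averaged 59.2 ± 12.1 CPM over the ICH_MA libraries (SD, n = 3), and its log2 fold change from ICH was −0.69 ± 0.66 (SE; edgeR adjusted p = 0.646). The log2 fold change was −0.68 for Drd2 (SE 0.67), −0.64 for Ppp1r1b (SE 0.63), −0.23 for Pdyn (SE 0.33) and −0.26 for Gad1 (SE 0.15), with edgeR adjusted p from 0.42 to 0.779. Penk averaged 220.4 ± 55.6 CPM over ICH_MA and 333 ± 68.5 CPM over ICH (SD, n = 3 each), and its log2 fold change was −0.60 ± 0.49 (SE; edgeR adjusted p = 0.592). Every ICH_MA library had less Penk than any ICH library, an order seen in 9.14% of all genes tested (7.87% had the reverse order). Th averaged 5.84 ± 1.30 CPM over ICH_MA (SD, n = 3), and its log2 fold change was 1.11 ± 0.74 (SE; edgeR adjusted p = 0.501). The median log2 fold change of the 7 genes was −0.60, against −0.02 over all genes tested. The comparisons of ICH with Sham and of ICH_MA with ICH share the ICH libraries.

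The comparison of ICH_MA with Sham asked how treated rats differed from rats without hemorrhage. No gene of the 7 passed, and 6.67% of all genes tested did. None had groups that did not overlap, and 11.8% of all genes tested lay higher in every ICH_MA library and 7.2% lower. Among 7 genes, counts of 0 lie near these shares and do not set the genes apart. Log2 fold changes were 0.15 for Drd1 (SE 0.59), 0.01 for Drd2 (SE 0.60), 0.04 for Ppp1r1b (SE 0.56), −0.01 for Penk (SE 0.44), −0.01 for Pdyn (SE 0.29) and 0.03 for Gad1 (SE 0.13), with edgeR adjusted p from 0.915 to 0.997. These values near 0 depend on Sham replicate 1, which was singled out for its high values of these genes. Its omission raises the fold changes by construction, so the values without it are a description. They were 1.00 for Drd1, 0.89 for Drd2, 0.79 for Ppp1r1b, 0.57 for Penk, 0.30 for Pdyn and 0.12 for Gad1. None passed (edgeR adjusted p from 0.0791 to 0.578, while 8.95% of all genes tested passed). With any other library left out, Drd1 was at −0.06 to 0.31. Drd1 passed, narrowly, without both Sham replicate 1 and ICH replicate 5 (1.01, edgeR adjusted p = 0.0484, against 13.4% of all genes tested). That joint omission was chosen after the values were seen. ICH replicate 5 is in neither group compared and enters through the estimate of spread (SE 0.32 without Sham replicate 1, 0.29 without both). Th was at −1.04 with SE 0.66 (edgeR adjusted p = 0.396), and ICH_MA replicate 2 lay below all sham libraries, at 4.35 CPM.

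Transcripts of the 2 kinds of projection neuron were set against each other within each library. The log2 ratio of Drd1 to Drd2, whose absolute size depends on gene length and is not read here, was 0.22, 0.35, 0.26, 0.31 and 0.23 in Sham replicates 1 to 5, 0.29, 0.38 and 0.54 in ICH replicates 1, 2 and 5, and 0.40, 0.27 and 0.53 in ICH_MA replicates 1 to 3. Its SD within groups was 0.10, against 0.90 and 0.91 for log2 CPM of the genes themselves (0.53 and 0.51 without Sham replicate 1). Sham replicate 1, highest for both receptors, had the lowest ratio. The mean was 0.27 ± 0.05 over Sham, 0.40 ± 0.13 over ICH and 0.40 ± 0.13 over ICH_MA (SD, n = 5, 3 and 3). ICH exceeded Sham by 0.13 (exact two-sided permutation p = 0.0714, adjusted p = 0.179 over 6 tests, smallest possible p = 0.0179) and ICH_MA exceeded Sham by 0.12 (exact permutation p = 0.0893, adjusted p = 0.179). Neither difference passed.

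The log2 ratio of Pdyn to Penk was −2.30, −1.73, −1.70, −1.27 and −1.74 in the sham libraries, −2.17, −2.38 and −2.30 in ICH, and −1.69, −1.83 and −2.21 in ICH_MA. The ICH libraries were low and close together, and Sham replicate 1 lay among them. The mean was −1.75 ± 0.37 over Sham and −2.28 ± 0.11 over ICH (SD, n = 5 and 3), a difference of −0.54 that did not pass (exact permutation p = 0.0893, adjusted p = 0.179). ICH_MA lay 0.37 above ICH (exact permutation p = 0.2, adjusted p = 0.3, smallest possible p = 0.1). The ratio of Tac1 to Penk was not analysed here.

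**Figure D5:**
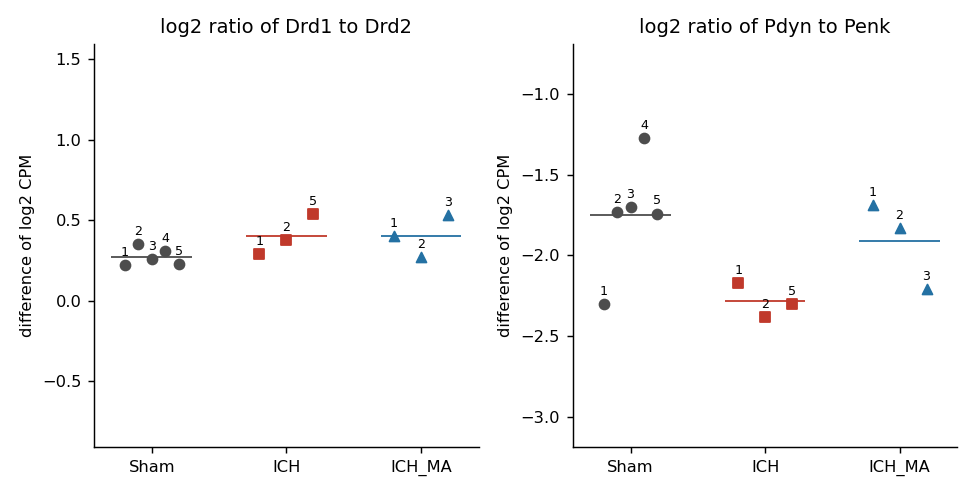
Log2 ratios of Drd1 to Drd2 and of Pdyn to Penk (vertical axes, difference of log2 CPM, equal spans) in each library by group, numbered by replicate, with a line at the group mean. The receptor ratio stays between 0.22 and 0.54 in all 11 libraries, while the peptide ratio spans −2.38 to −1.27.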

How the data were processed

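Total RNA of 11 rat brain libraries was sequenced, and the authors deposited a table of gene counts, whole numbers per Ensembl gene ID, without normalization. The submitters' processing notes name Bowtie2, RSEM 1.3.1, DESeq2 1.4.5 and the build mRatBN7.2, with no roles. Of 15 labelled samples, 4 were left out as not analysed here. Library totals were 56393423 to 67733469 counts.

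Genes were filtered by edgeR's filterByExpr (minimum count 10, total 15), which left 14963 of 15094 genes and all 7 genes measured. Libraries were scaled by TMM, and 3 comparisons were tested in 1 quasi-likelihood fit of all libraries (edgeR 4.0.16, R 4.3.3), with Benjamini-Hochberg adjustment over all genes tested and a threshold of 0.05. The SE of an edgeR log2 fold change was its absolute value divided by the square root of the F statistic of its test. Log2 CPM used a prior count of 2. Pairs of genes were tested by exact permutation within groups (4320 arrangements), and ratios by exact permutation. The fit was tested on simulated data with 200 changed genes. Alternatives used other scaling, no filter, DESeq2 1.42.0, limma-voom (limma 3.58.1), 2 groups only, a replicate block, each library left out, and, chosen after the values were seen, Ppp1r1b as a covariate and 2 libraries left out together.

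Every gene of the list found in the table is named. The genes and lists were chosen with earlier results of these data known. The reference of 47357 genes gives no Ensembl IDs, so 14 lists of related genes and cell type markers (92 symbols) could not be matched, and other cell types were not checked.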

Additional observations from a re-analysis of the deposited data

Results flagged for a closer look

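Among the 5 sham libraries, Sham replicate 1 stood far above the rest in CPM for 5 of the 7 genes. Its gap to the next library exceeded Dixon's critical value of 0.71 of the group's range. The gaps of genes were taken on CPM, and the marks depend on that scale. On log2 CPM, Drd1 was at 7.21 in Sham replicate 1, 5.32 in Sham replicate 2 and 4.36 in Sham replicate 4, a gap under 0.71 of the range. In CPM, Drd1 was at 148 in Sham replicate 1, with a gap of 0.849 of the range. Drd2 was at 127 CPM (gap 0.866), Ppp1r1b at 1068 CPM (gap 0.859), Penk at 517 CPM (gap 0.814) and Pdyn at 105 CPM (gap 0.816). Chance marks about 1 in 20 groups of normally distributed values, a rate that need not hold for CPM, and 9 values over the sham libraries were examined. The 5 genes varied together, so these are not 5 separate signs. For Gad1, Th and the ratios no sham library was marked.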

How the results depend on the processing

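In ICH against Sham, the number of genes called was 1992 to 4484 with 1 library left out at a time, and DESeq2 called 4567 (2438 higher, 2129 lower) against 3662 (2250 higher, 1412 lower). Of the 7 genes, 0 to 6 were called with 1 library left out, 6 being without Sham replicate 1. The count was 0 with limma-voom, 0 with only 2 groups and 0 of the other 6 genes with Ppp1r1b as covariate. It was 4 without both Sham replicate 1 and ICH replicate 5, where 4940 genes were called in all.

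In ICH_MA against ICH, 0 to 1137 genes were called with 1 library left out (1137 without ICH replicate 5), 477 by DESeq2 (195 higher, 282 lower) and 1384 without both libraries, and 0 of the 7 genes in each. In ICH_MA against Sham, 348 to 1575 were called with 1 left out, 1830 by DESeq2 (1130 higher, 700 lower, against 748 and 250), 1541 with only 2 groups and 2008 without both libraries, where 1 of the 7 passed (Drd1, 1.01, edgeR adjusted p = 0.0484). The number of pairs that passed was 3 to 15 with 1 library left out. DESeq2 gave no p for Drd2 in any comparison, so Drd2 could not be called there.

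Same-numbered libraries did not deviate together (8 pairs, correlations −0.156 to 0.0853). With the replicate block, 1914 genes were called in ICH against Sham and 0 of the 7, with Th at −1.20 (edgeR adjusted p = 0.23). It called 0 in ICH_MA against ICH and 117 in ICH_MA against Sham, where Penk was at 0.01.

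Signs turned mainly for log2 fold changes near 0. With the covariate Pdyn was at −0.14 for ICH against Sham, at 0.04 for ICH_MA against ICH, and Gad1 at −0.02 in ICH_MA against Sham. In ICH_MA against Sham, limma-voom gave 0.21 for Penk and 0.04 for Pdyn, and without both libraries they were 0.58 and 0.30, with 0.90 for Drd2, 0.80 for Ppp1r1b and 0.13 for Gad1. With 1 library left out, values there were −0.06 to 1.00 for Drd1, −0.21 to 0.89 for Drd2, −0.15 to 0.79 for Ppp1r1b, −0.19 to 0.57 for Penk, −0.25 to 0.30 for Pdyn and −0.03 to 0.12 for Gad1. The ratio of Drd1 to Drd2 in ICH_MA against ICH was −0.07 to 0.06. The cause was not tested. The lowest count of Th was 56, and that of Drd1 was 1339.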

Other observations

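Among all 14962 other genes tested, ranked by the correlation of log2 CPM with group means removed over the 11 libraries, Drd1 was the nearest of all to Drd2 and Drd2 was second for Drd1, with Ppp1r1b at rank 4 for each. For Ppp1r1b, Drd2 ranked 5 and Drd1 ranked 8. Penk had Drd2 at rank 16, Drd1 at 21 and Pdyn at 34, and Gad1 had Penk, its closest among the 7 genes, at rank 121. Drd1 had 162 genes with r above 0.9 (1.08% of those ranked), Ppp1r1b 170, Drd2 149, Penk 79, Pdyn 59, Gad1 37 and Th 2. The libraries share depth and scaling across genes, and these values describe them without a test. The ranking was not repeated without Sham replicate 1. Without that library, r of Drd1 was 0.98 with Drd2, 0.97 with Ppp1r1b, 0.78 with Penk and 0.70 with Pdyn. The nearest gene to Drd1 was ENSRNOG00000003800 (r = 0.997) and the nearest to Penk was ENSRNOG00000004757 (r = 0.995), whose names the files do not give. Th ranked 13042 to 14051 for Drd1, Drd2, Ppp1r1b, Penk and Pdyn, near the far end of the order.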
